A study of Mus musculus with 51 samples.

Results

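Chst2, Il4i1, Col9a2 and Letm2 are 4 genes proposed as separating CD103+ from CD103- CD8+ T cells of a mouse mammary tumor. Over all weeks each differed in mean between CD103+ and CD103-CD69+ cells with ranges that overlap. Against CD103-CD69- cells the mean differences of Il4i1 and Letm2 over all weeks were close to 0, but single weeks differed in sign. For Il4i1 this difference was 1.07 at week 1 and -1.56 at week 6, and for Letm2 0.69 at week 1 and -0.42 at week 4. The 4 genes were taken by symbol. All 4 were found among the 10560 genes of the untreated table and the 13458 genes of the checkpoint-treated table. The members were chosen by their measured difference between CD103+ and CD103- tumor cells, so that difference is given below as a description with no test. The differences within spleen and the changes with tumor age within a subset were tested. The changes with tumor age use tumor libraries of the choosing contrast, whose weeks are not given. Their p-values may therefore not be free of that choice.

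The study sorted CD8+ T cells from AT3-OVA tumors, a mouse mammary carcinoma line that carries ovalbumin, and sequenced the 3' ends of their RNA. CD103 (Itgae) is an integrin chain that binds E-cadherin, and CD69 keeps T cells from leaving a tissue. DP (double positive) stands for CD103+CD69+ cells, SP (single positive) for CD103-CD69+ cells and DN (double negative) for CD103-CD69- cells. Untreated tumors were sampled at weeks 1, 2, 4 and 6, with 3, 4, 3 and 3 DP libraries, 3, 3, 2 and 3 SP libraries and 2, 3, 3 and 2 DN libraries. Control spleen gave 3 libraries each of cells labelled naive, CM and EM, taken here as central and effector memory. A second experiment had 3 DP, 3 SP and 2 DN libraries at day 40 from tumors under immune checkpoint blockade (ICB), with the antibodies not given in the labels. In all there were 51 libraries in 18 groups. Strain, age and whether a library is 1 animal or a pool are not given either, so p-values measure only the spread between these libraries.

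Chst2 encodes a Golgi sulfotransferase that adds sulfate to N-acetylglucosamine, a step in making sulfated glycans that selectins recognise. Il4i1 encodes a secreted L-amino acid oxidase that breaks down phenylalanine and tryptophan, and its indole and kynurenine-like products can activate the aryl hydrocarbon receptor; it is best known from myeloid cells and B cells. Col9a2 encodes a chain of type IX collagen, a cartilage collagen that sits on the surface of collagen fibrils. Letm2 belongs to the family of LETM1, an inner mitochondrial membrane protein of cation exchange, and is less studied than LETM1.

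The members lie on 4 chromosomes in the GENCODE M21 annotation of GRCm38, each as a protein-coding gene. Chst2 spans chr9:95399292-95406722 (minus strand), with at most 2 exons in a model. Il4i1 spans chr7:44816387-44840809 (plus strand, 9 exons), Col9a2 chr4:121039385-121055322 (plus strand, 32 exons) and Letm2 chr8:25578490-25597582 (minus strand, 11 exons). Reads of Il4i1 carry a limit: its annotated span overlaps Nup62 on the same strand and Atf5 and Tbc1d17 on the other, and the span of Tbc1d17 covers the 3' end of Il4i1. Letm2 overlaps the sense intronic model Gm45570 and the antisense D830025C05Rik, neither at its 3' end. Whether the authors counted reads by strand is not given in the sources used here.

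Promoter sequences are shown for the 3 members with a RefSeq entry (GRCm38.p6), because the members were grouped for moving with CD103, whose own gene answers to TGF-beta and Runx3. Each window covers the bases just before and after the RefSeq start, in the direction of transcription. Capitals mark CAGAC, the SMAD box, on either strand. The windows are chr9:95407221-95407520 on the minus strand, chr7:44836038-44836337 on the plus strand and chr4:121039316-121039615 on the plus strand. The Il4i1 window lies inside the longer GENCODE span of that gene. The Chst2 window lies wholly outside the GENCODE span given above, on its upstream side. The Col9a2 window holds the GENCODE start, and most of it lies inside the span. The matches below therefore apply to the RefSeq starts only.
Chst2: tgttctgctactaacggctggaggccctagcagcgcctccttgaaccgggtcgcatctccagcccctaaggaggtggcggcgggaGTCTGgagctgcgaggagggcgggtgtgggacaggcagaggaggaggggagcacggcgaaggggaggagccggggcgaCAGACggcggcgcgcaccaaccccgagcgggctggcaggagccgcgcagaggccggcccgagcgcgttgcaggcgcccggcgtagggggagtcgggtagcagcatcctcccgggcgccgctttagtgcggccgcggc
Il4i1: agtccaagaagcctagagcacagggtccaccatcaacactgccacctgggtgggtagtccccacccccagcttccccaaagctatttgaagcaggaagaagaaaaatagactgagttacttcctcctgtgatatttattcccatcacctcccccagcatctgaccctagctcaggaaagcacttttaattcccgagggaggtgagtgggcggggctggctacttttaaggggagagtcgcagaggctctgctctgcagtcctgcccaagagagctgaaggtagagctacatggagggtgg
Col9a2: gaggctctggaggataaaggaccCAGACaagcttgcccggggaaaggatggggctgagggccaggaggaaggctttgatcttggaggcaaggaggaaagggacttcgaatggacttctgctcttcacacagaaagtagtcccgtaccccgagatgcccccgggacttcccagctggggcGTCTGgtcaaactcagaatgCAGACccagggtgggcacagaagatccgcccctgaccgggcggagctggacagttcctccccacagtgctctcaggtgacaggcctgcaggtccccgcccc
CAGAC was found at 2 places in the Chst2 window and 3 in the Col9a2 window, and at 0 in the Il4i1 window. Of 32851 promoter windows of the same length, 49.6% hold it. The Runx core TGTGGT (16.8% of windows), the AP-1 motif TGANTCA (7.81%) and the aryl hydrocarbon receptor core GCGTG (32.4%) were searched on both strands and are not among the letters of these 3 windows. No match overlapped a match of another motif. The 4 motifs were searched as letters only. The GC share was 73% for Chst2, 54% for Il4i1 and 61.7% for Col9a2. Letm2 is named without a window.

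All values below are the authors' normalised values, read as log2. In the untreated table they run from -31.9 to 41.5, which no log2 read count reaches, so a level there is a position on the authors' scale and not an abundance. Differences are in the same units, the 2 tables were normalised apart, and read depth is unknown. Itgae was higher in DP than SP cells by 1.11 (SE 0.28, limma adjusted p = 0.0316) and higher than in DN cells by 2.82 (SE 0.29, adjusted p = 2.8e-06). It was also higher in SP than DN cells by 1.71 (SE 0.30, adjusted p = 0.000583), although both were sorted as CD103-. Its mean in naive spleen, 16.05, was above the highest DP group mean (15.57, week 2). EM and CM were below naive by 2.41 (adjusted p = 0.00304) and 2.79 (adjusted p = 0.00135). Cd69 was higher in DP than DN cells by 0.78 (adjusted p = 0.0059). The DP minus SP difference of Cd69 was -0.03 (adjusted p = 0.949). Libraries of several kinds stand apart in marker scores, the mean centred log2 level over a marker list. The 3 DP week 1 libraries had T-cell identity scores of -0.72 to -0.69, while the other 40 libraries of the untreated table lay between -0.22 and 0.38. Tumor epithelium scores (7 of 11 markers measured) were 1.91 to 2.70 in DP week 1, 1.64 to 2.03 in SP week 1 and 1.61 to 1.65 in DN week 6, against -1.02 to -0.94 in DN week 1. B-cell scores (6 of 10 markers) were 1.23 to 2.11 in spleen EM, above the 0.85 that no other library passed. A log scale has no true zero, so no marker can be said to be at 0. Their part in the results below was not tested. The labels' library codes were cut here into 2 runs, 5 to 42 and 46 to 75. The labels name no runs, and wider gaps lie between codes 11 and 18 and between 61 and 72. The 10 DN libraries are all in the second run, with 2 DP, 1 SP and 0 spleen libraries. The DN week 1 libraries carry codes 72 and 73, and those of DN week 6 codes 50 and 61. The change from DN week 1 to week 6 cannot be told apart from this difference in codes. With the run as a term, genes called between DP and DN went from 2057 to 259 and between SP and DN from 2044 to 174. The DP minus DN values of the members were then -0.73 for Chst2, -0.27 for Il4i1, -0.99 for Col9a2 and 0.17 for Letm2. In these fits the run term rests on the groups with libraries in both runs, which are DP and SP groups only. No SP minus DN value within a run is given, because the second run holds 1 SP library.

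**Figure D1:**
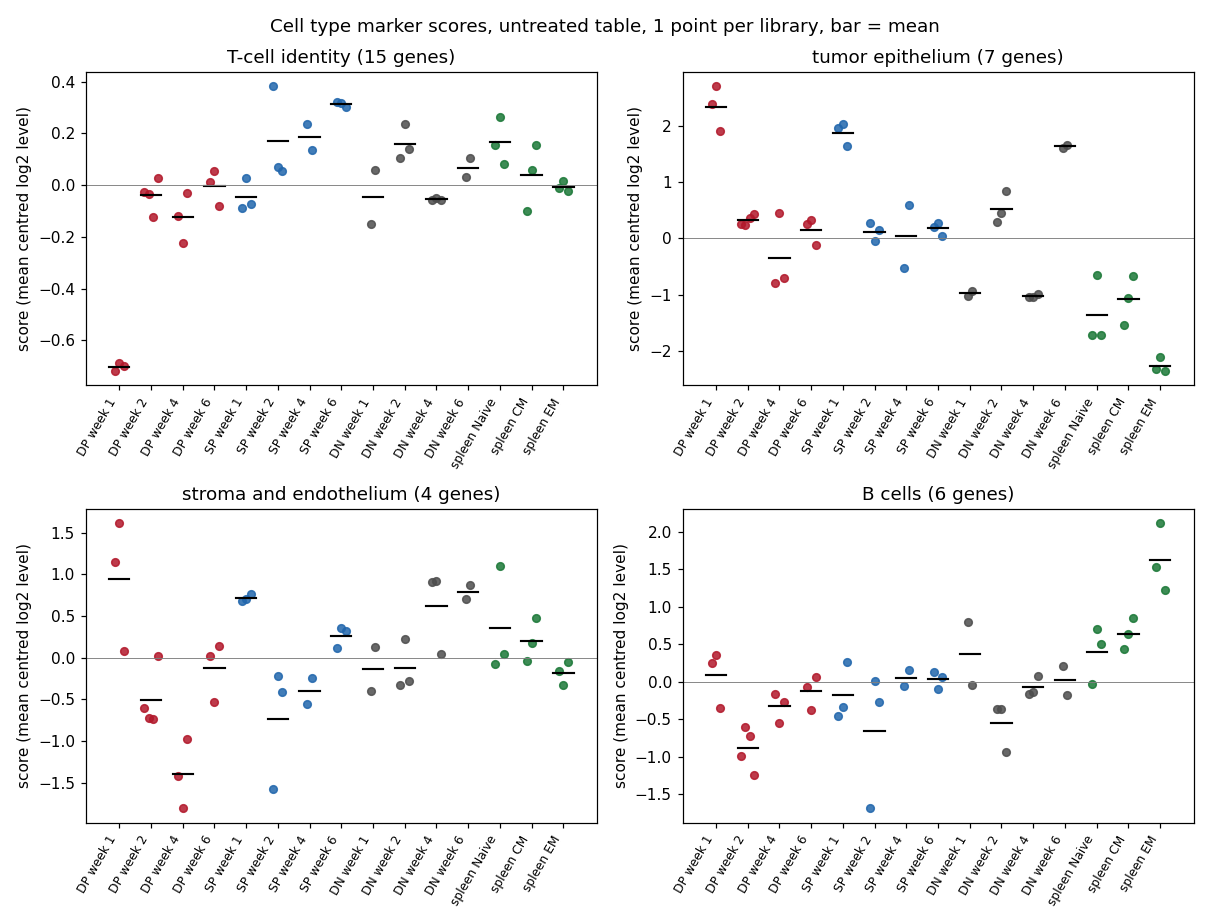
Marker scores per library in the untreated table, the mean over a list's measured genes of the log2 value minus that gene's mean over all libraries. Points are libraries (DP red, SP blue, DN grey, spleen green) and bars are group means; T-cell identity is lowest in DP week 1, tumor epithelium is high in DP and SP week 1 and DN week 6, stroma is lowest in DP week 4, and the B-cell score is highest in spleen EM.

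Chst2, the sulfotransferase, was lower in DP than in SP cells and far lower in naive spleen cells than in any tumor group. Its level ran from 17.51 to 19.62 in the 13 DP libraries (median 19.04), from 19.31 to 20.50 in the 11 SP libraries (median 19.81) and from 18.32 to 20.21 in the 10 DN libraries (median 19.73). The DP libraries that lie within the SP range come from weeks 2 and 6. The DP minus SP difference over 4 weeks was -0.98 (SE 0.23), with the weekly differences at -1.53, -0.51, -0.91 and -0.97 for weeks 1, 2, 4 and 6. Leaving out any 1 week left it between -1.14 and -0.80. The DP minus DN difference was -0.58 (SE 0.24) and shrank to -0.05 at week 6. The SP minus DN difference was 0.40 (SE 0.25), given without a test because it shares libraries with the choosing contrast. It was 0.16 after quantile normalization, 0.20 without DN week 1 replicate 1 and 0.60 without DN week 1 replicate 2. DP week 1 was the lowest tumor group at 18.18, 18.37 and 17.51, the same libraries that had the lowest T-cell identity scores.

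In spleen, Chst2 was higher in CM and in EM than in naive cells. The 3 naive libraries read 14.94, 16.14 and 14.61, the 3 CM libraries 17.58, 18.15 and 18.57, and the 3 EM libraries 19.98, 19.47 and 20.30. No 2 of these groups overlap. EM exceeded naive by 4.69 (SE 0.45, limma adjusted p = 1.16e-07), and CM exceeded naive by 2.87 (SE 0.45, adjusted p = 0.000125). Of all genes, 24.6% passed the test in EM against naive and 18.8% in CM against naive. Both calls held in each alternative fit and with each spleen library left out, with adjusted p at most 0.0257. The SP minus EM difference was -0.09 (SE 0.36), again untested, in a comparison in which 29.4% of genes were called. DN minus EM was -0.49 (SE 0.37, untested), where 20.6% of genes were called. B-cell scores were highest in EM, and their part was not tested.

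Among the 15 untreated groups ordered by mean Chst2, 2 of the 14 neighbouring pairs have ranges that do not overlap. They are DP week 4 above spleen CM, and DP week 1 above spleen naive. The 6 highest means belong to the 4 SP groups, DN week 2 and spleen EM. Chst2 did not pass the test for tumor age in any subset. DP week 6 minus week 1 was 1.06 (adjusted p = 0.0933), SP 0.50 (adjusted p = 0.634) and DN 0.00 (adjusted p = 0.997). With design-based degrees of freedom the DP change passed (adjusted p = 0.0214). The DN value turns negative under both rescalings of the libraries, -0.70 after quantile normalization and -0.11 after median rescaling.

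**Figure D2:**
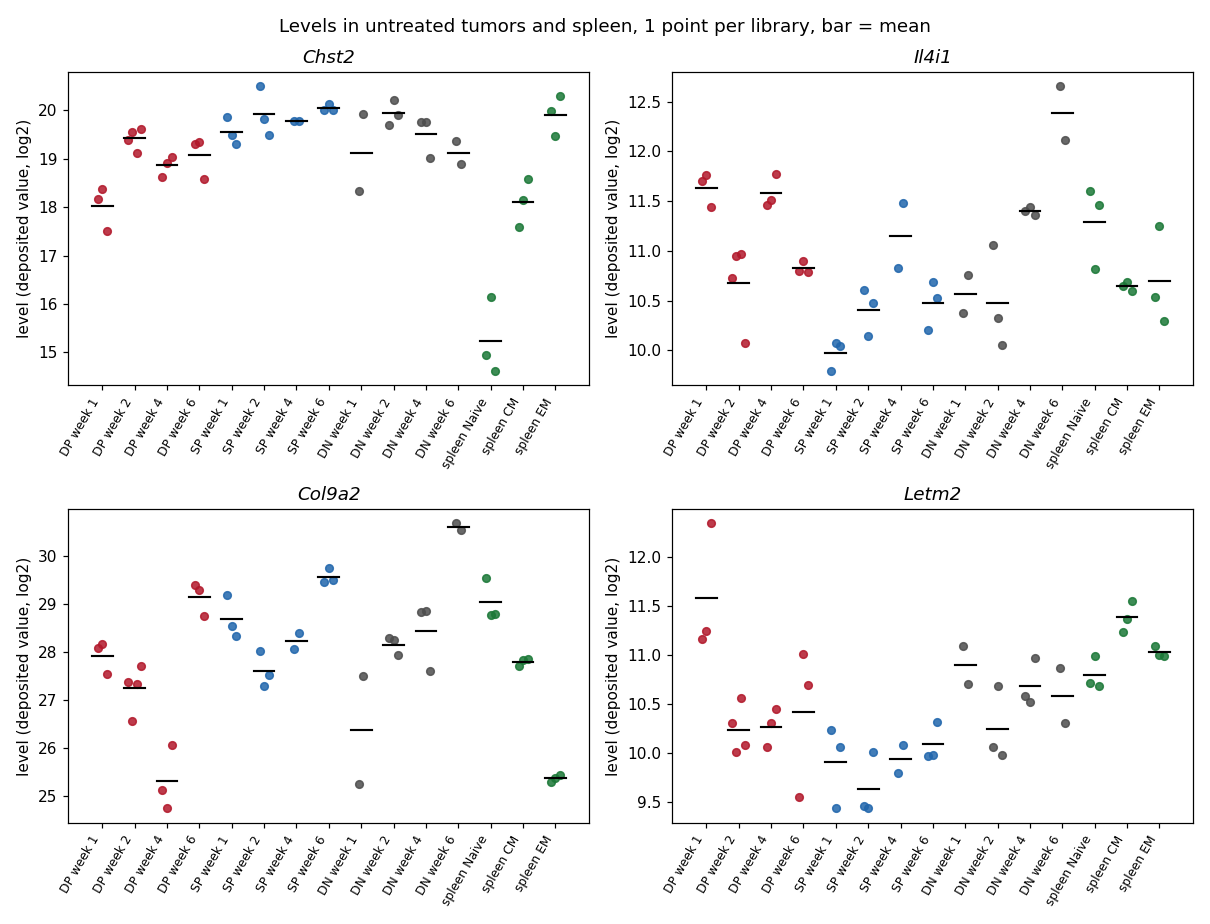
Level of each member in every library of the untreated table (y axis, deposited log2 values; x axis, sorted subset and week, then spleen). Each point is a library and each bar a group mean. Chst2 is lowest in naive spleen, Col9a2 lowest in DP week 4 and spleen EM, and Il4i1 and Letm2 lie lower in SP than in DP at week 1.

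Col9a2, the type IX collagen chain, was also lower in DP than in SP cells, mostly through week 4. Its level ran from 24.73 to 29.39 in DP (median 27.53), from 27.29 to 29.75 in SP (median 28.40) and from 25.25 to 30.68 in DN (median 28.26). The DP minus SP difference was -1.12 (SE 0.27), with weekly differences of -0.77, -0.36, -2.92 and -0.43. Without week 4 it was -0.52. At week 4 the 3 DP libraries read 25.12, 24.73 and 26.07 and the 2 SP libraries 28.06 and 28.40, so the groups lie apart. The stroma and endothelium score (4 of 11 markers measured) was also lowest in DP week 4, at -1.81 to -0.97. SP week 2 reached down to -1.57 in that score, and its Col9a2 values were 28.02, 27.29 and 27.51. The part of stromal RNA was not tested, and in sorted bulk samples fewer cells of a type and less RNA per cell cannot be told apart. The DP minus DN difference was -0.99 (SE 0.28), positive at week 1 (1.55) and negative at week 4 (-3.12). Without week 1 it was -1.83.

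Within the CD103- subsets Col9a2 changed with tumor age in DN cells. The 2 DN libraries of week 1 read 25.25 and 27.49, and the 2 of week 6 read 30.68 and 30.54, the highest of all libraries. The library at 25.25, DN week 1 replicate 1, had an Itgae level of 14.00, within the DP week 1 range of 13.70 to 14.22. No other DN library passed 12.69. DN week 6 exceeded week 1 by 4.24 (SE 0.65, limma adjusted p = 0.00127), in a comparison in which 5.79% of genes were called. After quantile normalization the rise was 2.75 (adjusted p = 0.0467), and against week 2 in place of week 1 it was 2.46 (adjusted p = 0.0528). Tumor epithelium scores rose alongside, from -1.02 and -0.94 to 1.61 and 1.65, with 4 of 7 measured epithelial markers called higher and 0 lower. Stroma and endothelium scores were -0.40 and 0.12 at week 1 and 0.71 and 0.87 at week 6, with 0 of 4 markers called and 0 at an unadjusted limma p below 0.05. The part of these in the Col9a2 rise was not tested. Nor can the rise be told apart from the difference in library codes between DN week 1 and week 6, given above. In SP cells the rise was 0.88 (adjusted p = 0.421), and 2.72% of genes were called there. In DP cells it was 1.22 (adjusted p = 0.0966, or 0.0202 with design-based degrees of freedom), and 25% of genes were called.

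The change of Col9a2 in SP minus the change in DN was -3.36 (SE 0.83, limma interaction adjusted p = 0.0234), and 4.66% of genes passed that test. It includes the DN libraries whose codes differ between the weeks. It also uses tumor libraries of the choosing contrast, so its p-value may not be free of that choice. The call was lost when only the groups compared were fitted (adjusted p = 0.166), after quantile normalization (-2.00, adjusted p = 0.29) and without DN week 1 replicate 1 (-2.24, adjusted p = 0.169). Leaving out either DN week 6 library or SP week 1 replicate 1 gave adjusted p between 0.0534 and 0.0792, and week 2 in place of week 1 gave -0.50 (adjusted p = 1).

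Spleen EM cells were low in Col9a2. The 3 EM libraries read 25.29, 25.37 and 25.43, the 3 CM libraries 27.71, 27.83 and 27.86, and the 3 naive libraries 29.54, 28.77 and 28.80. EM was lower than naive (-3.67, SE 0.53, adjusted p = 2.38e-05), with no overlap. CM minus naive was -1.24 (adjusted p = 0.11, or 0.0218 with design-based degrees of freedom). DN tumor cells exceeded EM by 3.03 (SE 0.43, untested). With the run of library codes as a term this was 3.02 (SE 0.63), while the number of genes called in that comparison went from 2180 to 428. That fit cannot tell the run from the comparison, so nothing is read from it. All 10 DN libraries lie in the second run and all 9 spleen libraries in the first. Its run term rests on DP and SP groups only, as given above. The DN and EM ranges overlap through DN week 1 replicate 1, which read 25.25. SP cells exceeded EM by 3.16 (SE 0.42, untested), and DP cells by 2.04 (SE 0.41, untested). The B-cell score was high in EM, as given above. Tumor epithelium scores were lowest in EM, at -2.36 to -2.11, against -1.53 to -0.66 in CM and -1.72 to -0.65 in naive spleen. Of the 7 measured epithelial markers, 5 were called higher and 0 lower than in EM, both in SP and in DN. Of all genes, 29.4% and 20.6% were called in these comparisons. The part of these scores in the Col9a2 differences was not tested. In the order of the 15 group means, DN week 6 stands above SP week 6, and SP week 6 above DP week 6, each with no overlap. The other 12 neighbouring pairs overlap.

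Il4i1, the amino acid oxidase, was higher in DP than in SP cells, chiefly at week 1. It ran from 10.07 to 11.77 in DP (median 10.97), from 9.79 to 11.48 in SP (median 10.47) and from 10.05 to 12.66 in DN (median 11.21). The DP minus SP difference was 0.68 (SE 0.16), with weekly differences of 1.66, 0.27, 0.43 and 0.35. Without week 1 it was 0.35. At week 1 the DP libraries read 11.70, 11.76 and 11.44 and the SP libraries 9.79, 10.07 and 10.04. Myeloid scores (9 of 15 markers measured) were 0.21 to 0.82 in those DP libraries and -0.35 to 0.08 in those SP libraries, and the T-cell identity scores of the DP libraries were the lowest of the table. Their part was not tested. The DP minus DN difference was -0.03 (SE 0.16), and with 1 library left out it ran from -0.10 to 0.04: it was 1.07 at week 1 and -1.56 at week 6. At week 6 the DN libraries, at 12.66 and 12.11, were above those of every other group. SP minus DN was -0.71 (SE 0.17, untested) and -1.91 at week 6.

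DN cells gained Il4i1 with tumor age. Week 1 read 10.37 and 10.76, week 2 read 11.06, 10.33 and 10.05, week 4 read 11.41, 11.44 and 11.36, and week 6 read 12.66 and 12.11. DN week 6 minus week 1 was 1.82 (SE 0.37, limma adjusted p = 0.00743), where 5.79% of genes were called. As for Col9a2, this change cannot be told apart from the difference in library codes. Myeloid scores were -0.49 and -0.47 in DN week 1 and 0.13 and 0.33 in DN week 6, and the epithelial scores rose as given above. Myeloid scores were higher at week 6 in DP (0.42 to 0.93) and SP (0.52 to 0.69), where Il4i1 read 10.78 to 10.89 and 10.21 to 10.69. The mean myeloid score of DP cells was 0.57 at week 1 and 0.65 at week 6. The part of these scores was not tested. The call was lost without DN week 1 replicate 1 (1.63, adjusted p = 0.108) or DN week 6 replicate 1 (1.55, adjusted p = 0.0852). In DP cells the change was -0.81 (adjusted p = 0.0573), lower in all 3 week 6 libraries than in any week 1 library. It passed the test after median rescaling (-0.92, adjusted p = 0.0345), with a replicate block (adjusted p = 0.048) and with design-based degrees of freedom (adjusted p = 0.0103). With week 2 in place of week 1 it was 0.15. In SP cells the change was 0.50 (adjusted p = 0.427). The SP minus DN difference in change was -1.32 (SE 0.48, adjusted p = 0.128) and passed only with design-based degrees of freedom (adjusted p = 0.0205).

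No spleen difference of Il4i1 passed the test. Naive libraries read 11.60, 10.81 and 11.46, CM libraries 10.65, 10.68 and 10.59, and EM libraries 10.54, 11.25 and 10.30. EM minus naive was -0.60 (adjusted p = 0.168), and CM minus naive -0.65 (adjusted p = 0.15), although the 3 CM libraries lie below the 3 naive libraries. With design-based degrees of freedom the latter passed (adjusted p = 0.0448). Without EM replicate 2, the library at 11.25, EM minus naive was -0.87 (adjusted p = 0.0472). DN minus EM was 0.51 (SE 0.25, untested). The 15 group means span 2.42, and 3 of 14 neighbouring pairs do not overlap: DN week 6 above DP week 1, DP week 4 above DN week 4, and SP week 2 above SP week 1.

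Letm2, the mitochondrial family member, was higher in DP than in SP cells, with a mean DP minus DN difference near 0 over the 4 weeks. It ran from 9.55 to 12.35 in DP (median 10.45), from 9.43 to 10.32 in SP (median 9.98) and from 9.98 to 11.10 in DN (median 10.64). The DP minus SP difference was 0.74 (SE 0.18), with weekly differences of 1.68, 0.60, 0.33 and 0.33. Without week 1 it was 0.42. DP minus DN was 0.02 (SE 0.18), from -0.07 to 0.13 with 1 library left out and -0.20 without week 1. By week it was 0.69 at week 1 and -0.42 at week 4. SP minus DN was -0.71 (SE 0.19, untested), negative in each of the 4 weeks. By median, SP was the lowest of the 3 subsets for Letm2, and DP lay between SP and DN.

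The week 1 DP libraries read 11.17, 11.25 and 12.35 for Letm2, and the week 6 libraries 9.55, 11.01 and 10.70. DP week 6 minus week 1 was -1.17 (SE 0.35, limma adjusted p = 0.0193), with no overlap. In that comparison 25% of genes were called. Week 1 also had the largest DP minus SP difference of Letm2, so this p-value may not be free of the choice of members. The call was lost without DP week 1 replicate 3 (-0.79, adjusted p = 0.121), without DP week 6 replicate 1 (-0.73, adjusted p = 0.141) and with only the groups compared (adjusted p = 0.224). From week 2 to week 6 the difference was 0.18. The T-cell identity list moved in the same comparison, with 10 of 15 genes higher at week 6 and 0 lower, and 4 of 7 epithelial markers lower. The part of these in the Letm2 value was not tested. The SP change was 0.18 (adjusted p = 0.85) and the DN change -0.31 (adjusted p = 0.729). In spleen, EM minus naive was 0.23 (adjusted p = 0.68) and CM minus naive 0.59 (adjusted p = 0.267), although the 3 CM libraries, at 11.24 to 11.55, lie above the 3 naive libraries, at 10.68 to 10.99. Of 14 neighbouring pairs of group means, only spleen CM above spleen EM has no overlap.

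The weeks differed in how many members had separate ranges in DP and SP. At week 1 all 4 members had DP and SP ranges that did not overlap, where 36.2% of all genes did. At week 2 it was 0 of 4 (12.6% of genes), at week 4 it was 2 of 4, Chst2 and Col9a2 (40.9%), and at week 6 it was 3 of 4, all but Letm2 (32.3%). These shares use the contrast that chose the members and nothing is read from them. The direction of the DP minus SP difference was the same in the 4 weeks for each member. Over the whole untreated table, 3.48% of genes were called between DP and SP, 19.5% between DP and DN, and 19.4% between SP and DN.

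**Figure D3:**
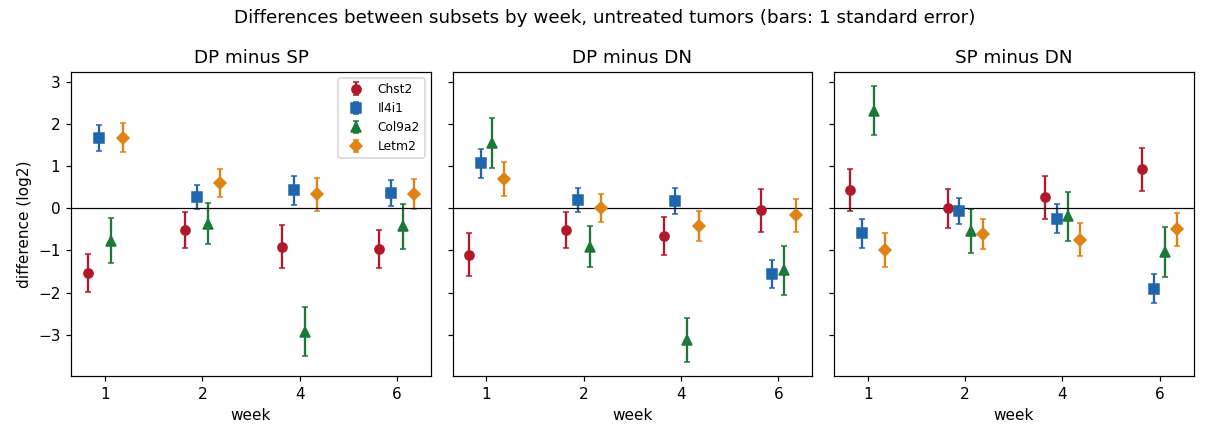
Difference of each member between subsets (y axis, log2) at weeks 1, 2, 4 and 6 (x axis) in untreated tumors; symbols are fitted differences and bars 1 standard error. In DP minus SP, Il4i1 and Letm2 are positive and Chst2 and Col9a2 negative each week, with the largest values at week 1 for Il4i1 and Letm2 and at week 4 for Col9a2 (-2.92).

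Under checkpoint blockade at day 40, Chst2, Letm2 and Col9a2 had separate ranges in DP and SP cells. Chst2 read 7.27, 7.20 and 6.97 in DP, 8.28, 8.54 and 8.52 in SP, and 7.96 and 8.05 in DN. DP minus SP was -1.30 (SE 0.16) and DP minus DN -0.86 (SE 0.18). Letm2 read 6.48, 6.45 and 6.42 in DP, 5.97, 6.30 and 5.86 in SP, and 6.22 and 6.33 in DN. DP minus SP was 0.41 (SE 0.22).

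Col9a2 read 2.37, 2.48 and 2.79 in DP, 3.34, 2.83 and 3.09 in SP, and 2.23 and 2.05 in DN. DP minus SP was -0.54 (SE 0.37), while DP minus DN was 0.41 (SE 0.41), so DN cells were the low group here. In the untreated table they were so at week 1 only. Tumor epithelium scores (9 of 11 markers measured) averaged -1.08 in these 2 DN libraries and were -0.08 to 0.17 in DP and 0.41 to 0.86 in SP. Stroma and endothelium scores (6 of 11) were -0.94 in both DN libraries, 0.01 to 0.61 in DP and -0.09 to 0.86 in SP, and the part of either was not tested. Il4i1 read 3.86, 3.69 and 3.19 in DP, 2.57, 3.41 and 2.95 in SP, and 3.09 and 3.39 in DN, with ranges that overlap. Its DP minus SP difference was 0.61 (SE 0.41). The signs of DP minus SP matched the untreated table for all 4 members, which is the contrast by which they were chosen.

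Of the 4 members, 3 had DP and SP ranges apart (38.4% of genes) and 3 had DP and DN ranges apart (73.1%). Between SP and DN it was 2, Chst2 and Col9a2, against 62.1% of genes. The SP minus DN differences were 0.44 for Chst2 (SE 0.18), 0.95 for Col9a2 (SE 0.41), -0.27 for Il4i1 (SE 0.46) and -0.23 for Letm2 (SE 0.24), given without a test because they share libraries with the choosing contrast. Of all genes, 3.83% were called between SP and DN. For the other contrasts, 0.0372% of genes were called between DP and SP and 7.49% between DP and DN. Myeloid scores (14 of 15 markers measured) were 0.88 to 1.15 in DP, -0.45 to 0.06 in SP and -1.19 to -1.18 in DN. Their part in the Il4i1 values was not tested.

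**Figure D4:**
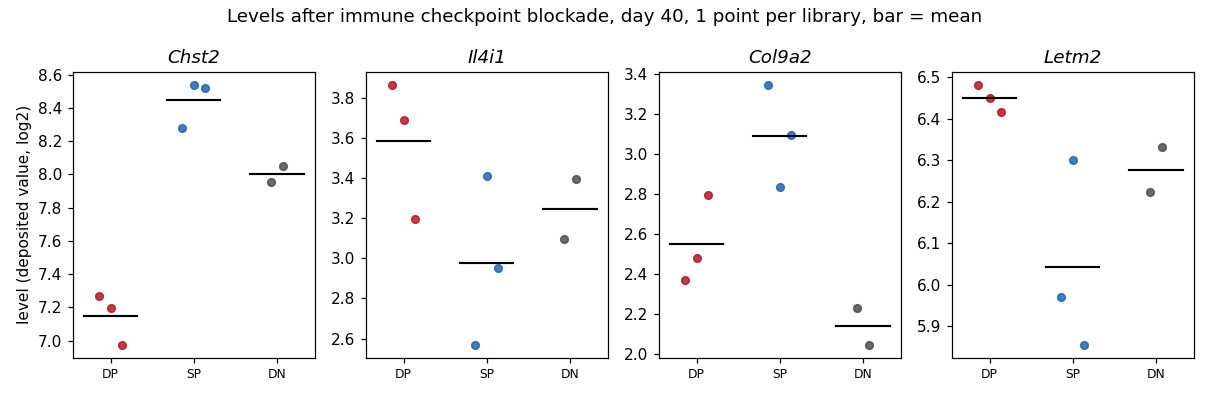
Level of each member per library at day 40 under checkpoint blockade (y axis, deposited log2 values, each panel on its own scale; x axis, subset). Points are libraries and bars are group means; DP lies below SP for Chst2 and Col9a2 and above SP for Letm2, and Il4i1 overlaps.

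The genes whose 15 untreated group means followed each member most closely differed between the members. For Chst2 they were Klrc1 (Pearson r = 0.964), Atp2b4 (0.963), Ccl4 (0.957), Ptpn7 (0.945) and Ifng (0.943). Klrc1 encodes the NKG2A receptor, Ccl4 a chemokine and Ifng interferon gamma, all known from effector CD8+ T cells. For Col9a2 they were Clic6 (0.885), Gdpd1 (0.875), Otx1 (0.859), Pik3r3 (0.858) and Abhd6 (0.857). For Letm2 they were Zfp874a (0.894), Pdpr (0.881), Kat8 (0.878), Spns1 (0.873) and Usp21 (0.87). For Il4i1 the values were lower: Dvl2 (0.764), Tldc2 (0.715), Fbxo24 (0.711), Dbp (0.694) and Ccdc97 (0.691). These are descriptions over groups that share libraries, normalisation and the low naive spleen point of Chst2. Among the members themselves the correlations over the same means ran from -0.491 (Chst2 and Letm2) to 0.348 (Il4i1 and Letm2).

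Between DP and SP, where 3.48% of all genes were called, the pathway list around Chst2 had called genes and those around the other 3 members had 0. Of the 28 measured genes of glycan sulfation and selectin ligand synthesis, around Chst2, 1 was higher and 4 were lower in DP than SP, with a list median of -0.13 against -0.04 for all genes. Selplg, which encodes the P-selectin ligand PSGL-1, was lower in DP (-0.44, adjusted p = 0.000438). Spn, the sialomucin CD43, was also lower (-0.33, adjusted p = 0.00183). Against DN, 2 of the 28 were higher and 7 lower in DP, and 5 were higher and 6 lower in SP, where 19.5% and 19.4% of all genes were called. Without week 1 these were 7 higher and 9 lower in DP, and 5 higher and 8 lower in SP. The share of all genes called against DN without week 1 is not given here. Nothing is therefore read from these counts or from those of the lists below. Without week 1 the DP against SP counts were 0 higher and 1 lower, while 136 genes in all were called, down from 368. Selplg then read -0.29 (adjusted p = 0.0532) and Spn -0.24 (adjusted p = 0.0475).

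Around Il4i1, 0 of the 19 measured genes of amino acid oxidation, the kynurenine pathway and the aryl hydrocarbon receptor passed between DP and SP, with 3 at an unadjusted limma p below 0.05. Against DN, 5 were higher and 3 lower in DP, and 5 were higher and 1 lower in SP, where 19.5% and 19.4% of all genes were called. The list medians were 0.25 and 0.22 against -0.01 and 0.03 for all genes. Without week 1 the counts against DN were 7 and 3 in DP and 6 and 1 in SP, and 1 gene, Il4ra, was called higher in DP than SP (0.53, adjusted p = 0.0354). Haao, a late enzyme of the kynurenine pathway, was lower than in DN in both DP (-0.89, adjusted p = 0.00188) and SP (-0.89, adjusted p = 0.00319). Il4ra, the interleukin 4 receptor chain, was higher in DP than DN by 0.51 (adjusted p = 0.00249).

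Around Col9a2, 0 of the 16 measured genes of collagen chains and processing passed between DP and SP, with 1 at an unadjusted limma p below 0.05. Against DN, 1 was higher and 3 lower in DP, and 1 was higher and 2 lower in SP, where 19.5% and 19.4% of all genes were called. Without week 1 the counts became 1 and 5 in both. Itgb1, the beta chain of collagen-binding integrins, was lower than in DN in both DP (-0.80, adjusted p = 4.21e-06) and SP (-0.77, adjusted p = 1.3e-05). Col16a1 was -0.85 in DP minus DN (adjusted p = 0.0076), and P4hb, a subunit of prolyl 4-hydroxylase, was 0.24 higher (adjusted p = 0.00457), a call lost without week 1 (0.03, adjusted p = 0.709). From week 1 to week 6, 4 of the 16 rose in DN cells and 0 fell, with a median of 0.95 against 0.12 for all genes. Of all genes, 5.79% were called in that change. In the interaction of SP and DN 4 of 16 were called lower, where 4.66% of all genes were called. The epithelial, stroma and endothelium scores of DN cells moved over the same weeks, as given above.

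Around Letm2, 0 of the 21 measured genes of mitochondrial cation transport passed between DP and SP, with 1 at an unadjusted limma p below 0.05. Against DN, 1 was higher in DP, and 1 was higher and 1 lower in SP, where 19.5% and 19.4% of all genes were called. Without week 1 these were 2 higher and 3 lower in DP, and 2 higher and 2 lower in SP. Mcur1, a regulator of the calcium uniporter, was higher than in DN in both DP (0.34, adjusted p = 0.00118) and SP (0.42, adjusted p = 0.000294). Vdac1, a channel of the outer mitochondrial membrane, was -0.26 in SP minus DN (adjusted p = 0.0221). Of the 15 genes of T-cell identity, 11 were lower in DP than SP and 0 higher, which became 3 lower without week 1. Cd8a was -0.54 (adjusted p = 0.000228) and Cd3g -0.37 (adjusted p = 0.0132) in DP minus SP. Without week 1 these were -0.31 (adjusted p = 0.0561) and -0.19 (adjusted p = 0.312). Lat, an adaptor of T-cell receptor signalling, was -0.41 in DP minus DN (adjusted p = 2.37e-05). Under checkpoint blockade 0 genes of any of the 5 lists passed the limma test between DP and SP, where 5 genes passed in all. At an unadjusted p below 0.05 the counts were 2, 1, 3, 6 and 4 for cation transport, amino acid oxidation, collagen, glycan sulfation and T-cell identity.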

How the data were processed

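Libraries were 3' mRNA (QuantSeq FWD, 10 ng of total RNA, 75 bp single-end reads, per the labels). Reads were aligned to mm10 with HISAT2 and counted with HTSeq, per the submitters' processing notes. The authors deposited normalised values, read here as log2 from their range (the base is inferred), in a table of 43 untreated libraries and one of 8 checkpoint-treated libraries. The normalisation step and read depth are not given in the sources used here.

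Each table was fitted with limma 3.58.1 (R 4.3.3; group means, trend and robust options, no filter), with Benjamini-Hochberg adjustment over all genes and calls at adjusted p below 0.05. Residuals spanned 18 of 28 directions in the untreated table and 2 of 5 in the other, so degrees of freedom were multiplied by 0.643 and 0.4 and variances divided by the same. The script was tested on simulated data. Weeks were weighted equally. Members, lists and tests were chosen with earlier results of these data known. The named genes are the 4 members, Itgae and Cd69, up to 3 genes with the smallest adjusted p among the called genes of each of 5 pathway lists, and the 5 genes closest to each member by Pearson r over 15 group means. Some genes that this rule names are not reported here. SP against DN (both tables) and SP and DN against spleen EM had been planned as tests of the members, and are given without a p because they share libraries with the choosing contrast. The changes with tumor age share libraries with it too and keep their p, with the limit given at the start. Promoters came from RefSeq and gene positions from GENCODE. Figures were drawn with matplotlib. Alternatives changed degrees of freedom, samples fitted, scaling, variance model, replicate block, library code run, low-mean filter, weeks and libraries left out, and no pair of libraries held identical values. List counts without week 1 and means with each week left out were added after seeing the data.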

Additional observations from a re-analysis of the deposited data

Results flagged for a closer look

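The change of Col9a2 from week 1 to week 6 differed between SP and DN cells, with a difference of -3.36 (limma interaction adjusted p = 0.0234). The call held in 6 of 9 alternatives, and with week 2 in place of week 1 the difference was -0.50. With 1 library left out it ran from -4.48 to -2.24, and the call did not hold in each of these fits. Library codes also differ between the DN weeks, as given above, and the p-value may not be free of the choice of members. Epithelial marker scores of the same DN libraries went from -1.02 and -0.94 to 1.61 and 1.65, and their part was not tested.

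Il4i1 libraries of week 6 lay on opposite sides of those of week 1 in DP and in the CD103- subsets. Each of the 3 DP libraries of week 6 lay below each of week 1 (difference -0.81, limma adjusted p = 0.0573), each of the 3 SP libraries of week 6 lay above each of week 1 (0.50, adjusted p = 0.427), and each of the 2 DN libraries of week 6 lay above each of week 1 (1.82, adjusted p = 0.00743). The differences of DP from SP and of DP from DN were not tested. Against week 2 in place of week 1 the DP difference was 0.15. With 1 DN library left out the DN difference ran from 1.55 to 2.09, and its call did not hold in each of these fits. None of the 4 members had a library that stood apart in the group of 4 (DP week 2), the highest ratio of gap to range being 0.731, below Dixon's 95% limit. Groups of 2 and 3 were not examined for this.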

How the results depend on the processing

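Of the tested values of the 4 members, 188 of 208 under other alternatives and 139 of 152 with 1 library left out kept their direction and side of the threshold. Of the untested values, 252 of 258 and 430 of 444 kept their sign. Part of the 252 was fixed by construction. Neither tested nor untested signs can change with the degrees of freedom, the variance model, only the groups compared or the low-mean filter. These alternatives leave the differences between group means as they are. Untested signs changed for Il4i1 and Letm2 in DP minus DN, Col9a2 in SP minus DN (0.13, with -0.33 after quantile normalization and -0.59 without week 1), and Chst2 and Il4i1 in SP minus EM. Scaling changed the sign of Chst2 in DN week 6 minus week 1, at -0.70 after quantile normalization and -0.11 after median rescaling. With week 2 in place of week 1, signs changed for Chst2 (-0.34), Il4i1 (0.15) and Letm2 (0.18) in DP and for Chst2 (-0.81) and Letm2 (0.34) in DN. With 1 library left out, Chst2 ran from -0.79 to 0.80 in DN week 6 minus week 1 and from -0.31 to 1.29 in the interaction, and Letm2 from -0.063 to 0.34 in SP week 6 minus week 1. Read depth is unknown and replicates may be technical, so the precision of single libraries is not known. The cause of each change was not tested, other than by how the alternative is built.

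Counts of genes called moved with many choices. Design-based degrees of freedom gave 1554 for DP minus SP (368 reported), 3648 for DP minus DN, 3679 for SP minus DN, 4011 for EM minus naive, 3425 for CM minus naive, 3815 for DN minus EM, 4196, 1380 and 1996 for week 6 minus week 1 in DP, SP and DN, and 1671 for the interaction. Under checkpoint blockade they gave 3250, 6101 and 5217 for DP minus SP, DP minus DN and SP minus DN. Fits of only the groups compared gave 191 for DP minus SP, 1209 for EM minus naive, 1041 for DN minus EM, 583, 559 and 392 for the 3 weekly changes, 182 for the interaction and 206, 4315 and 1331 under checkpoint blockade. The run of library codes as a term gave 259 for DP minus DN, 174 for SP minus DN and 428 for DN minus EM. Quantile normalization gave 398 for the DN change and median rescaling 8 for DP minus SP under blockade. Leaving out low-mean genes gave 188 for the SP change and 13 for DP minus SP under blockade. DP minus SP without week 1 gave 136. Week 2 in place of week 1 gave 26, 68 and 76 for the DP, SP and DN changes and 0 for the interaction, where 454 genes had an unadjusted limma p below 0.05. Without the trend and robust options of limma the blockade counts were 1, 14 and 0, and for the last 2665 genes had an unadjusted p below 0.05.

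With 1 library left out, counts ran from 835 to 2282 for DN minus EM, 1668 to 3136 for SP minus EM, 1596 to 2843 for EM minus naive and 1178 to 2037 for CM minus naive. They ran from 71 to 794 for the DN change, 170 to 492 for the interaction and 69 to 146 for the SP change. Under blockade they ran from 3 to 682, 617 to 2386 and 397 to 1438 for DP minus SP, DP minus DN and SP minus DN. Counts moved by over 1.5 times without spleen EM replicate 1 or 3 (EM minus naive and both comparisons with EM), spleen naive replicate 1 or 3 (both spleen comparisons), DN week 1 replicate 1 or either DN week 6 library (the DN change and the interaction), SP week 6 replicate 1 or 2 (the interaction) and each SP library of weeks 1 and 6 (the SP change). Under blockade they did so without any DP library, SP replicate 1 or SP replicate 3 (DP minus SP), DP replicate 3 or either DN library (DP minus DN) and SP replicate 1 (SP minus DN). A library left alone in its group is assumed to vary like the other groups.

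The replicate numbers of the labels were not taken to pair the libraries, because not every same-numbered pair had a correlation of deviations over 0.1. Without treatment, 56 of 276 such pairs did (median 0.00253, lowest -0.664), and under blockade 4 of 7 (median 0.361, lowest -0.995). The numbers do not always follow neighbouring library codes. Codes 29, 30 and 31 are naive replicate 1, CM replicate 2 and EM replicate 1. Under blockade, codes 83, 84 and 85 are DP replicate 2, SP replicate 2 and DN replicate 1. Pairs by neighbouring codes were not examined, so neither this check nor a replicate block can tell whether such libraries were sorted together. A replicate block gave 628, 1721 and 1213 genes under blockade and moved no untreated count by over 1.5 times. Of the members it changed 1 call, Il4i1 in DP week 6 minus week 1 (adjusted p = 0.048).

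Among called genes, the share higher went from 22% to 34.3% (quantile) and 34.5% (median rescaling) in DP minus SP, from 62.5% to 52.3% and 46% in the DP change, from 86.1% to 59.3% and 67.6% in the DN change and from 18.5% to 33.7% and 31.6% in the interaction. Under blockade it went from 20% to 28.6% and 37.5% in DP minus SP and from 64.5% to 50.6% (quantile) in SP minus DN. The median of all genes moved by over 0.1 in the DN change (0.12, and -0.04 after quantile normalization) and in the interaction (-0.10 and 0.03).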
